A study of Arabidopsis thaliana with 12 samples.

Results

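A group of 5 nuclear genes of the photosynthetic light reactions was followed across 12 samples of Arabidopsis thaliana: LHB1B2 (AT2G34420), PSAN (AT5G64040), PSBW (AT2G30570), LPA19 (AT1G05385) and AT1G76450. They are the 5 features, of 3439 on the array, whose platform annotation gave exactly 1 gene and that gene was one of these loci; 692 features had a single annotated gene. The genes were picked with the difference between the groups already known from an earlier reading of the same array, so their group differences are given as a description with no p-value. RNA was measured on a 1-channel array in plants of ecotype Wassilevskija. One group was wild type, its roots kept for 48 h on MS medium with 100 mM glucose (6 samples). The other was kn09, a mutant that per the labels is hypersensitive to proline and cannot catabolise it in mitochondria, kept for 48 h on MS medium with 100 mM proline (6 samples). Genotype and medium changed together, and the effects of the mutation, of proline and of glucose cannot be told apart. The mutated gene, the tissue that gave the RNA and the source of the 6 samples in a group are not given in the labels, so a p-value here reflects sample-to-sample spread that may be only technical.

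In the thylakoid membrane of the chloroplast, light is caught by chlorophyll-binding antenna proteins and passed to photosystem II, which splits water, and to photosystem I, which reduces ferredoxin. Most antenna proteins and the small peripheral subunits are encoded in the nucleus, made in the cytosol and imported, while the reaction centre proteins are encoded in the plastid. Transcripts of the nuclear genes are abundant in green tissue, are induced by light and, in many plants, are repressed by sugars. LHB1B2 encodes an LHCB1 protein of the main photosystem II antenna, PSAN a lumenal subunit of photosystem I that helps plastocyanin dock, PSBW a small membrane subunit of photosystem II that helps to hold it to its antenna, LPA19 a Psb27-type protein of photosystem II assembly, and AT1G76450 a member of the PsbP family of lumenal proteins.

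Intensities are in the authors' units, which run from 0 to a ceiling of about 100 in every sample. A value of 99 or more was counted as at the ceiling. The sample medians lay between 0.137 and 0.224. Features at 0 numbered 175 to 265 in wild type and 317 to 475 in kn09. None of 22 root marker genes and none of 18 green-tissue marker genes had a single-gene feature, so the labelled roots could not be checked against markers. In whole-tissue RNA, fewer cells of a type and less RNA per cell cannot be told apart. Within each group, samples numbered 1 and 2, 3 and 4, and 5 and 6 resembled each other, with a consensus correlation of 0.447; the labels do not say what these numbers stand for.

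The antenna gene and the photosystem I gene had lower values in every kn09 sample on proline than in any wild type sample on glucose. LHB1B2 ranged in wild type from 25.8 to 40.3 with a median of 37.2. In kn09 it ranged from 4.28 to 6.91 with a median of 6.24. Every kn09 sample lay below every wild type sample, and the dimmest wild type sample was 3.74 times as bright as the brightest kn09 sample. The mean was 35.3 ± 5.65 (SD, n = 6) against 5.88 ± 1.06 (SD, n = 6), a log2 difference of -2.63 ± 0.23 (SE) on quantile-normalized values. When the features of a sample were ordered by intensity, a position that no rescaling of the sample can move, LHB1B2 stood at 9 to 19 in wild type and at 82 to 133 in kn09. The next gene in the RefSeq table is LHB1B1 (AT2G34430), a close copy of LHB1B2, and how far the feature also detects LHB1B1 or other LHCB1 genes was not tested.

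PSAN ranged from 5.43 to 9.34 in wild type, with a median of 8.42. In kn09 it ranged from 0.893 to 1.79, with a median of 1.66. The groups did not overlap, and the gap between them was 3.03-fold. The group means of 7.65 ± 1.68 and 1.48 ± 0.381 (SD, n = 6 each) corresponded to -2.42 ± 0.23 (SE) on the normalized log2 scale. The position of PSAN among the features moved from 58 to 91 in wild type to 286 to 518 in kn09.

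**Figure D1:**
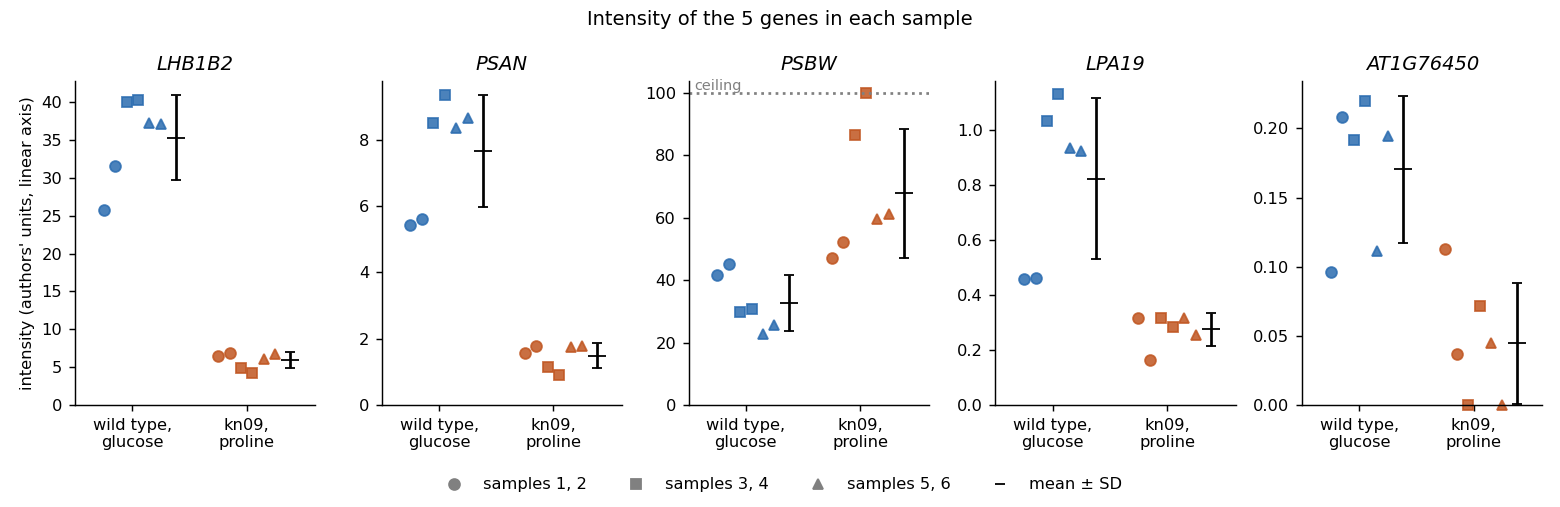
Intensity of each gene (linear axis from 0, authors' units) in the 6 wild type samples on glucose (blue) and the 6 kn09 samples on proline (orange), with marker shapes for the sample numbers and black bars for the mean ± SD. LHB1B2, PSAN and LPA19 are lower in every kn09 sample, PSBW is higher with a narrow gap between 45.3 and 47.2, and AT1G76450 overlaps.

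PSBW ran the other way. It ranged from 22.6 to 45.3 in wild type, with a median of 30.4, and from 47.2 to 100.0 in kn09, with a median of 60.5. The deposited values did not overlap, but the lowest kn09 sample was only 1.04 times the highest wild type sample. The means were 32.7 ± 8.99 and 67.8 ± 20.8 (SD, n = 6 each), and the log2 difference was 0.92 ± 0.28 (SE). Since kn09 sample 4 was at the ceiling, the kn09 mean is a lower limit.

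PSBW differed between the sample numbers within each group. In wild type, samples 1 and 2 were the brightest, at 41.7 and 45.3, and samples 3 to 6 lay between 22.6 and 30.8. In kn09, samples 1 and 2 were the dimmest, at 47.2 and 52.3, and samples 3 and 4 the brightest, at 86.5 and 100.0. Samples 1 and 2 of the 2 groups therefore nearly met. Their normalized log2 values were 5.53 and 5.60 in wild type and 5.40 and 5.53 in kn09, and the difference within them was -0.10, opposite in sign to that of the deposited means of 43.5 and 49.7. Within samples 5 and 6 the normalized log2 difference was 1.22. Within samples 3 and 4 it was 1.63. There kn09 sample 4 had 5 features at the ceiling, PSBW among them, so their order and the normalized value of PSBW are uncertain. By position, PSBW stood at 10 to 19 in wild type and 1 to 12 in kn09. The difference without wild type samples 1 and 2 was 1.21.

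The assembly gene LPA19 ranged from 0.458 to 1.13 in wild type, with a median of 0.930. In kn09 it ranged from 0.163 to 0.317, with a median of 0.299. The deposited values did not overlap, with a gap of 1.44-fold. The group means of 0.824 ± 0.292 and 0.275 ± 0.0600 (SD, n = 6 each) corresponded to -1.49 ± 0.29 (SE) on the normalized log2 scale. Wild type samples 1 and 2, with a mean of 0.460, lay well below samples 3 to 6, whose pair means were 1.08 and 0.930. Without them the log2 difference was -1.91, and within samples 1 and 2 alone it was -0.87.

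AT1G76450 lay close to the floor of the scale. It ranged from 0.0959 to 0.220 in wild type, with a median of 0.193. In kn09 it was listed at 0 in samples 3 and 6 and ranged up to 0.113, with a median of 0.0409. The highest kn09 sample, number 1, lay above wild type samples 1 and 5, so the groups overlapped. The log2 difference of -2.30 ± 0.80 (SE) depends on the value given to the zeros: it was -1.33 with zeros as missing. With a pseudocount of 0.1 it was -0.80. The pseudocount was added to every value, so it also shrinks differences between dim samples that are not at 0. Its difference within samples 1 and 2 was -0.35, within samples 3 and 4 it was -2.88 and within samples 5 and 6 it was -3.67; the last 2 each hold a zero in kn09.

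**Figure D2:**
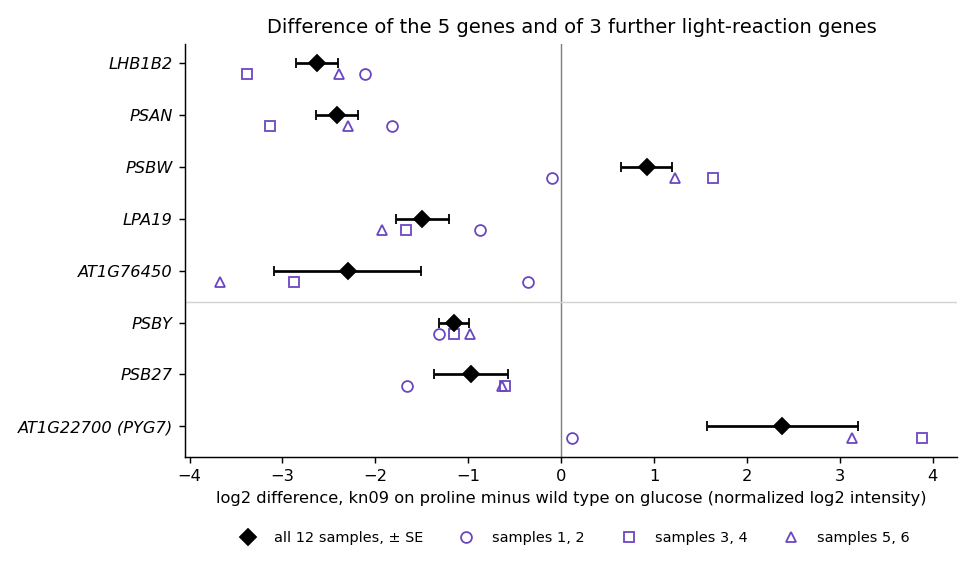
Log2 difference of kn09 on proline minus wild type on glucose for the 5 genes (above the line) and 3 further light-reaction genes (below), with diamonds and bars for the estimate over all 12 samples ± SE and open symbols for the difference within each pair of sample numbers. LHB1B2 and PSAN lie left of 0 in every pair, while the circle of PSBW, samples 1 and 2, lies at -0.10.

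Of the 5 genes, 4 were lower in kn09 on proline and 1 was higher. All 5 were past an adjusted p of 0.05 in limma, where 27.7% of the 3439 features were, 13.6% lower and 14.1% higher; this contrast chose the genes, so nothing is read from the count. The deposited values of 4 genes did not overlap between the groups, as was the case for 18.0% of all features, 8.69% lower and 9.28% higher in kn09. After normalization this held for 3 genes, LHB1B2, PSAN and LPA19, against 18.1% of all features. The median log2 difference was -2.30 over the 5 genes and -0.03 over all features. With samples 1 and 2, 3 and 4, and 5 and 6 of each group averaged, LHB1B2 and PSAN were past the threshold, 2 of the 5, where 5.87% of all features were. With these pairs as a random block LPA19 was past it as well, 3 of the 5, where 18.0% of all features were. The sample number as a block gave the same 3 genes, where 23.7% of all features were past it. These settings use the same contrast that chose the genes, so nothing is read from their counts either.

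**Figure D3:**
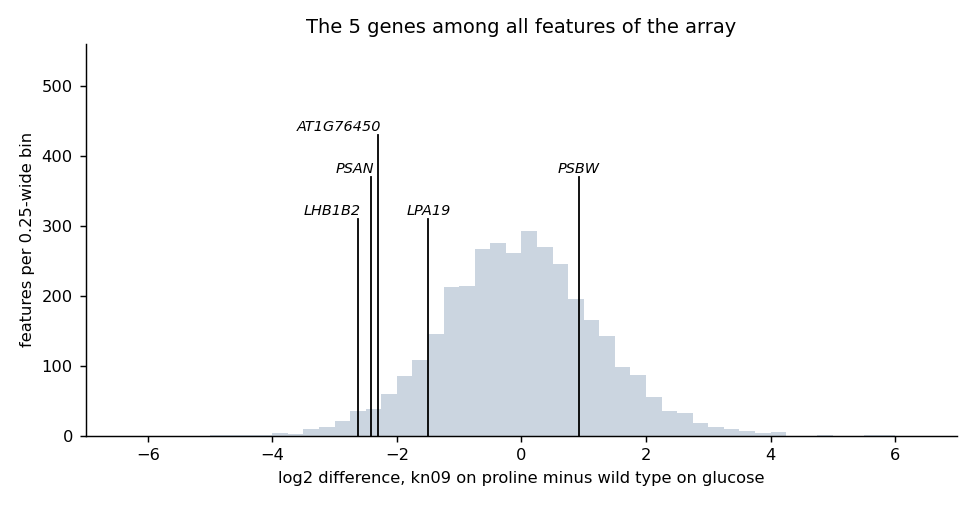
Histogram of the log2 difference, kn09 on proline minus wild type on glucose, over all 3439 features, with vertical lines at the 5 genes. The line heights carry no value; LHB1B2 at -2.63, PSAN at -2.42 and AT1G76450 at -2.30 lie in the left tail, LPA19 at -1.49 is nearer the middle, and PSBW at 0.92 lies inside the bulk.

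The genes were also compared with each other inside each sample, as differences between their quantile-normalized log2 values. A scaling factor common to the array cancels in these. The normalization is not a single factor per array, so its effect remains and the ratios differ from those of the deposited intensities. The log2 ratio of LHB1B2 to PSAN lay between 1.87 and 2.52 in wild type and between 1.75 and 2.25 in kn09. These ranges overlapped, and the ratio differed between the groups by -0.21, against an SD of 0.27 in wild type and 0.18 in kn09. The ratio of LHB1B2 to LPA19 was lower in kn09 by 1.13 on the log2 scale, with 4.90 to 6.21 in wild type and 3.86 to 5.24 in kn09, so these ranges overlapped too. The ratio of LHB1B2 to PSBW differed by -3.55, from between -0.97 and 0.85 to between -4.49 and -2.76, with no overlap. LHB1B2 was known to be lower and PSBW higher in kn09 when they were chosen, so nothing is read from this separation. LHB1B2 and PSAN had the profiles most alike of the 10 pairs of genes: with each profile centred on its own mean over the 12 samples, the root mean square difference was 0.23 on the log2 scale. For LHB1B2 and PSBW it was 1.89, and the farthest pair was PSBW and AT1G76450, with 2.21. These distances include the group differences known when the genes were chosen, so the order of the pairs largely restates those differences.

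Inside the groups the genes also moved by sample number. In the deposited wild type values, samples 1 and 2 had the lowest LHB1B2, PSAN and LPA19 and the highest PSBW, in each case the side nearer the kn09 samples. After normalization this order held for PSAN, LPA19 and PSBW, while LHB1B2 in sample 2 exceeded samples 5 and 6. For LHB1B2 the pair means in wild type were 28.7, 40.2 and 37.2 for samples 1 and 2, 3 and 4, and 5 and 6. For PSAN they were 5.52, 8.92 and 8.51. In kn09, samples 3 and 4 stood farthest from wild type for LHB1B2 at 4.59, PSAN at 1.01 and PSBW at 93.3. This did not hold for LPA19, which in kn09 was highest in samples 3 and 4 at 0.299, or for AT1G76450, which was lowest in samples 5 and 6 at 0.0224. The normalized log2 difference was accordingly largest within samples 3 and 4 for LHB1B2, at -3.38 against -2.11 and -2.39, and for PSAN, at -3.13 against -1.82 and -2.29. The part that the sample numbers play in these values was not tested.

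**Figure D4:**
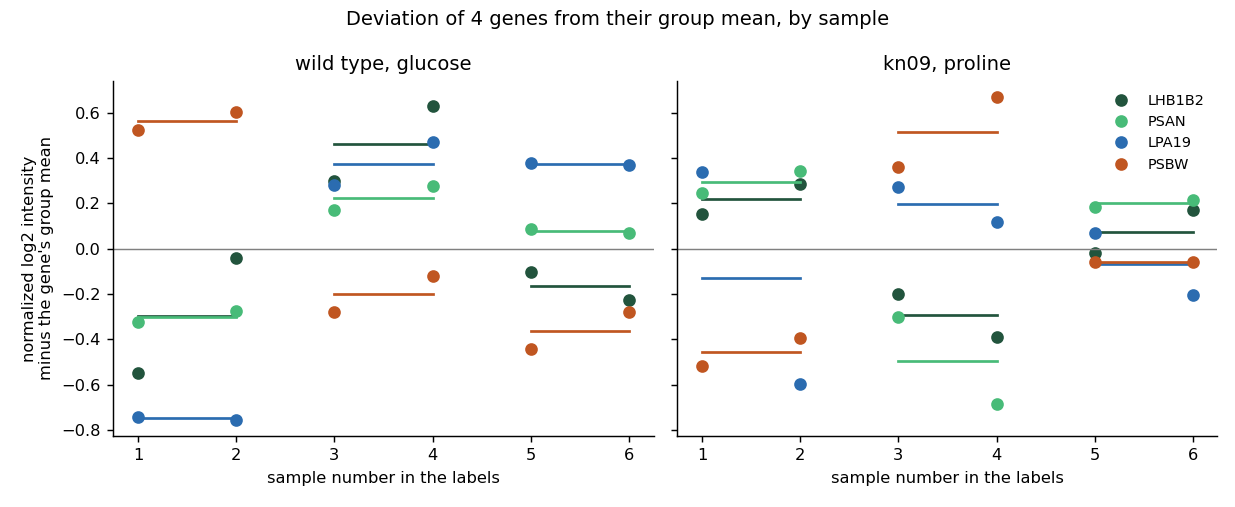
Normalized log2 intensity of 4 genes minus the gene's mean in its group, by sample number (points, with a short line at the mean of each pair of numbers), in wild type on glucose and kn09 on proline. In wild type samples 1 and 2 PSBW lies above its mean, by 0.56, while LHB1B2 lies 0.30 below and LPA19 0.75 below; in kn09 samples 3 and 4 PSBW lies 0.51 above while PSAN lies 0.49 below.

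Of the other light-reaction genes on a list of 82 loci, 3 had a single-gene feature, and of these 1 fell, 1 rose and 1 did not pass. Over all features 27.7% passed, 13.6% lower and 14.1% higher in kn09. The list was written with earlier results of these data known, so nothing is read from the count. PSBY (AT1G67740), which encodes small membrane proteins of photosystem II, ranged from 2.02 to 2.58 in wild type and from 0.866 to 1.26 in kn09. PSBY fell by 1.15 ± 0.16 (SE) on the log2 scale, with 0.000323 as its adjusted p in limma, and was lower in 6 of 6 kn09 samples than in any wild type sample. The latter held for 8.69% of all features. Within the pairs of sample numbers its difference was -1.32, -1.16 and -0.98; on the pair means the adjusted p was 0.0781. PSBY and PSBW, both small subunits of photosystem II, thus lay on opposite sides of 0.

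PSB27 (AT1G03600) encodes another Psb27-type protein, related to that of LPA19. It ranged from 0.692 to 2.81 in wild type and from 0.452 to 0.924 in kn09, with overlap, and did not pass in limma (-0.97 ± 0.39 SE on the log2 scale, adjusted p 0.0872). In wild type samples 1 and 2 PSB27 was high, with a mean of 2.69 against 1.15 and 0.744 in the other pairs, whereas LPA19 was low there. Without these samples the log2 difference of PSB27 was -0.42. Its adjusted p was 0.0381 with the replicate block, 0.0497 with a pseudocount and 0.0378 with trend and robust settings, but 0.144 with the pairs as a random block and 0.311 on pair means.

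AT1G22700, known as PYG7, encodes a protein needed to assemble photosystem I. It rose by 2.38 ± 0.81 (SE) on the log2 scale, just past the threshold with an adjusted p of 0.0473 in limma. In wild type it was listed at 0 in sample 4 and reached 0.195 and 0.233 in samples 1 and 2, while the kn09 samples lay between 0.125 and 0.343, so the groups overlapped. Within samples 1 and 2 its difference was 0.12, against 3.89 and 3.13 in the other pairs. The call was lost without any 1 of the 6 kn09 samples or of wild type samples 3 to 6, with adjusted p up to 0.0984, and with zeros as missing the difference was 1.34 with an adjusted p of 0.0806. It was also lost with the replicate block, at 0.0676, with the pairs as a random block, at 0.126, and on pair means, at 0.176.

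A further 5 genes connected with thylakoid electron transport were picked from the names on the array after the list had been written, and are described without a test: the NDH complex genes NdhS and NdhN, the NDH-related PIFI, the cytochrome b6f assembly gene CCB3 and ATAB2, which acts in translation of photosystem proteins. Of these 3 were lower and 2 higher in kn09, and the groups overlapped for each. The log2 differences ran from -1.79 ± 0.79 (SE) for PIFI to 1.34 ± 0.91 (SE) for CCB3. NdhS averaged 9.33 ± 2.12 (SD, n = 6) on glucose in wild type and 12.6 ± 1.36 (SD, n = 6) on proline in kn09. CCB3 was at 0 in 3 samples of each group, PIFI in 2 kn09 samples and ATAB2 in 4 kn09 samples. The sizes for CCB3, PIFI and ATAB2 therefore depend on the value given to the zeros.

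The single-gene features with the profile most like each gene were taken from 410 that had no value at 0 or at the ceiling. For LHB1B2 these were AT2G40980, with a root mean square difference of 0.32 on the log2 scale over 12 samples, and AT1G68660, with 0.34. The same genes came out for PSAN, with AT1G68660 at 0.33 and AT2G40980 at 0.38; both distances exceed the 0.23 between LHB1B2 and PSAN. AT1G68660 is known as CLPS1, an adaptor of the plastid Clp protease. For PSBW they were AT4G27510, with 0.18, and AT3G57120, with 0.21. For LPA19 they were AT4G30740, with 0.22, and UBA1A (AT2G22090), with 0.27. AT1G76450 had no close match among these: its nearest genes, AT1G15410 and AT5G59060, lay at 1.03 and 1.11, against a median of 1.91 over all 410. AT1G76450 is itself listed at 0 in kn09 samples 3 and 6. Features with a value at 0 were left out, so no match sharing its zeros could be found. These distances include the group difference for which the 5 genes were chosen.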

How the data were processed

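The deposited table holds 1 intensity per feature and sample, scaled by the authors against a reference that stays unknown; a linear scale was assumed from the values, which are never negative and mostly close to 0. The scanner, the background correction and any normalization or centring are not stated in the labels. Groups and sample numbers came from the titles. Gene names came from the platform annotation, updated through Entrez identifiers to RefSeq's TAIR10.1 gene table (690 of 692 single-gene features matched); no coordinates or sequences are printed, since no build is named for the array. Zeros were set to the 1st percentile of a sample's positive values, log2 was taken, and samples were quantile normalized, since log2 medians ran from -2.87 to -2.16. Differences and SEs come from limma 3.58.1 in R 4.3.3 (lmFit, eBayes, two-sided, group as the only term, Benjamini-Hochberg over 3439 features at 0.05). The fit was tested on simulated data that had independent samples, no zeros and no ceiling. That test cannot show how the calls behave with samples that resemble each other in pairs. Means and SDs are of deposited intensities. The number of arrays limits the precision.

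The genes, lists and alternatives were chosen with earlier results of these data known. Named genes are the 5, every other single-gene feature of the light-reaction list, and the 2 features nearest each gene in centred log2 profile; 5 thylakoid genes were added later. Alternatives concerned scaling, zeros, a pseudocount of 0.1, dim features, the ceiling, eBayes settings, sample numbers as blocks, pair means, and leaving out samples.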

Additional observations from a re-analysis of the deposited data

How the results depend on the processing

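The 5 genes kept the sign of their difference under the alternatives and without each sample in turn; the replicate block, pair means, random block and eBayes settings leave the difference as it is by construction and say nothing about the sign. Over the 12 alternatives LHB1B2 ran from -2.75 to -2.46, PSAN from -2.59 to -2.29, PSBW from 0.83 to 1.21, LPA19 from -1.91 to -1.22 and AT1G76450 from -2.76 to -0.80, the last with the pseudocount, which moved it by more than its spread. Without each sample in turn the ranges were -2.73 to -2.49, -2.49 to -2.27, 0.76 to 1.05, -1.66 to -1.37 and -2.68 to -1.76. One alternative, zeros as missing without normalization, was chosen after seeing the data. The median difference over all features moved from -0.03 to -0.36 without normalization and to -0.27 with median centring. Of all features 951 passed in the main setting, 202 on pair means and 620 with the pairs as a random block. Of the 3 other light-reaction genes 2 passed in the main setting, where 27.7% of all features did. Without normalization, with median centring, with zeros as missing or with the random block 1 of them passed, against 18.0% to 29.1% of all features. All 3 passed with the pseudocount, against 32.9% of all features, and with trend and robust settings, against 30.3%. On pair means 0 passed in limma, where 2 had an unadjusted p under 0.05. Without each sample in turn 1 to 2 passed. Same-numbered samples of the 2 groups had deviations that correlated by 0.0226 to 0.0937. These correlations are low, but 5 of the 6 wild type samples correlated best with their own number. Whether the numbers pair the groups was not tested. The main fit left the numbers out, and the replicate block took them in. With the replicate block 815 features passed, and the differences of the 5 genes were the same. The SEs were 0.28 for LHB1B2, 0.27 for PSAN, 0.33 for PSBW, 0.27 for LPA19 and 0.86 for AT1G76450. On pair means the SEs were, in the same order, 0.37, 0.37, 0.43, 0.42 and 0.69. The main SEs treat the samples of a group as independent. Dixon's test set apart 0 samples in 42 groups of 6 values. It compares an extreme value with its nearest neighbour, so it cannot set apart 2 samples that deviate together. LPA19 in wild type samples 1 and 2 is such a case, and nothing is read from the count. Dim features such as AT1G76450 lie close to the zeros, which limits what their sizes can show.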
